A study of Mus musculus with 4 samples.

Results

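The genes described here mostly encode nuclear subunits of the mitochondrial respiratory chain and the ATP synthase, with 7 assembly factors of complex I named Ndufaf. They were followed through the accessibility of their promoters and neighbouring peaks in Helios null and wild type stem and progenitor cells. Members were the rows of the peak table whose assigned gene name begins with Nduf, Uqcr, Atp5 or Cox4 to Cox8, or is Sdha, Sdhb, Sdhc or Sdhd, with names marked -ps left out. The rule used names only and found 231 of the 130941 peaks in the table, assigned to 86 genes, and all 231 were tested. Complexes were assigned by name as well. Atp5sl and Atp5s, whose RefSeq names Dmac2 and Dmac2l are not those of ATP synthase subunits, were therefore counted in complex V. The table's own classes placed 76 of them in promoter-TSS (a peak at a transcription start), for 66 of the genes, and 53 in introns, 46 in intergenic sequence, 36 in Distant-promoter, 11 in exons and 9 at transcript ends (TTS). The class describes where a peak lies, so a peak classed as intron can lie outside the gene it is assigned to.

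ATAC-seq measures open chromatin by the insertion of a transposase into accessible DNA. The tested libraries came from 2 Helios null mice and the controls from 2 wild type mice, all 10 weeks old. Helios is the zinc finger transcription factor encoded by Ikzf2. The cells were Lin-Sca1+cKit+ (LSK) bone marrow cells, a sorted mixture of haematopoietic stem cells and early progenitors. The protocol names 2 mice of each genotype for the 2 libraries of each, and does not state outright that each library is 1 mouse. The p-values measure the spread between only 2 libraries a genotype. The labels do not give the deleted part of the gene or the cells in which it was deleted.

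Library totals ran from 16033211 to 30290804 counts, and values below are counts scaled to the library total and by TMM, in the unit CPM. The libraries numbered 1 were the deeper ones in both genotypes and also held Y-linked counts, 1166 in Helios null 1 and 1715 in wild type 1, against 2 in Helios null 2 and 5 in wild type 2. The Ikzf2 promoter peak, which does not check the deletion, had 22.2 and 24.0 CPM in Helios null cells and 32.8 and 48.2 CPM in wild type cells (log2 fold change -0.80, SE 0.22, edgeR adjusted p = 0.189). Of 10 marker genes of stem and progenitor cells, 8 had a promoter-TSS peak. The highest by CPM per kb was taken for each gene, out of 4 for Kit, Meis1 and Runx1 and 5 for Hlf. This raises their place among all single peaks. It lay at the 96.6 percentile of all promoter-TSS peaks for Meis1, 92.0 for Cd34, 89.7 for Kit, 88.1 for Runx1, 82.0 for Hlf, 70.2 for Flt3, 61.0 for Gata2 and 53.0 for Mecom. Procr had no promoter-TSS peak, and Ly6a, which encodes Sca1, had no peak. Cd3e, Cd8a, Cd79a, Ly6g and Hba-a1, which mark mature blood cells, had no promoter-TSS peak, and those of Pf4, Mpo (the higher of 2) and Adgre1 lay at the 69.3, 40.3 and 16.0 percentiles.

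The respiratory chain carries electrons from NADH through complex I, or from succinate through complex II, to ubiquinone, then through complex III, cytochrome c and complex IV to oxygen. Complexes I, III and IV pump protons, and complex V, the ATP synthase, uses the gradient to make ATP. Some core subunits are encoded in mitochondrial DNA, and the others, the genes described here, in the nucleus. Resting haematopoietic stem cells are known to rely much on glycolysis and to raise respiration as they enter differentiation. NRF1 (encoded by Nrf1), the ETS factor GABP and YY1 are known to bind many promoters of these genes.

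Sequences of the promoters were taken from RefSeq (GRCm38.p6), as windows from 250 bases before to 50 after each start, and 77 windows matched 71 of the 86 genes. A few of them are shown, chosen to show the motifs and the promoters with the clearest values: Cox7c, the most accessible promoter of the set, Ndufaf4 and Atp5j, with lower values in Helios null cells, and Uqcr11, Cox8a and Ndufs7, which lie in gene-rich sequence. Capitals mark the 8-letter NRF1 sequence GCATGCGC, the ETS sequence CCGGAAG and the YY1 sequence AAGATGGCG, searched on both strands, so that an overlapping pair on opposite strands appears as a single longer run of capitals.
Cox7c, chr13:86046746-86047045, minus strand: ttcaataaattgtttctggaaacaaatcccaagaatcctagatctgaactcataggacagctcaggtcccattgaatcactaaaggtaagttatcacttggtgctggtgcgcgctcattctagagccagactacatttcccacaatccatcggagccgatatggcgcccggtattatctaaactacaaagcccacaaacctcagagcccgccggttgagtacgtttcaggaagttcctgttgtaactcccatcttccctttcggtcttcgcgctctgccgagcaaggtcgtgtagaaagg
Ndufaf4, chr4:24897833-24898132, plus strand: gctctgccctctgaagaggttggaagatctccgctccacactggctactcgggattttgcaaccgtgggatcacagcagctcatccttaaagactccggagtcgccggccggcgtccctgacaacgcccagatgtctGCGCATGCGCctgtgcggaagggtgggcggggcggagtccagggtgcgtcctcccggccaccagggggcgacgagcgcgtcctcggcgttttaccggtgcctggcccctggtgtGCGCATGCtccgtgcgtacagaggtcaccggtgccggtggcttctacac
Atp5j, chr16:84834927-84835226, minus strand: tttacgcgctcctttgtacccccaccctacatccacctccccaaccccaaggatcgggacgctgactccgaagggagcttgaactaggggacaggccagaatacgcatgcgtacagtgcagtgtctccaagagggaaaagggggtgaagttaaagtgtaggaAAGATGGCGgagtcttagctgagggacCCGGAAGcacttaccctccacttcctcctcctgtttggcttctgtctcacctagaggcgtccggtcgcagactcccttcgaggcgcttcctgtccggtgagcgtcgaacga
Uqcr11, chr10:80406772-80407071, minus strand: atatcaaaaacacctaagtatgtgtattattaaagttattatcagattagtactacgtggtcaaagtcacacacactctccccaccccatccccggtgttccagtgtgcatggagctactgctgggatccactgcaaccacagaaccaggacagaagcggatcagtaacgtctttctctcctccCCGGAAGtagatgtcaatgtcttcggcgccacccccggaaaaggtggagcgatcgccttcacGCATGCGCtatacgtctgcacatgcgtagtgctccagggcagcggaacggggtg
Cox8a, chr19:7217567-7217866, minus strand: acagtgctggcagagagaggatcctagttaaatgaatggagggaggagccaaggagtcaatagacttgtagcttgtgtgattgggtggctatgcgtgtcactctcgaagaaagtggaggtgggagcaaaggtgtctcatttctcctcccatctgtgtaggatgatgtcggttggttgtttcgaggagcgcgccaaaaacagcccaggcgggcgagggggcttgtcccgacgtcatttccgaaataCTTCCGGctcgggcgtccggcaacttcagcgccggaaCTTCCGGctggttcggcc
Ndufs7, chr10:80249199-80249498, plus strand: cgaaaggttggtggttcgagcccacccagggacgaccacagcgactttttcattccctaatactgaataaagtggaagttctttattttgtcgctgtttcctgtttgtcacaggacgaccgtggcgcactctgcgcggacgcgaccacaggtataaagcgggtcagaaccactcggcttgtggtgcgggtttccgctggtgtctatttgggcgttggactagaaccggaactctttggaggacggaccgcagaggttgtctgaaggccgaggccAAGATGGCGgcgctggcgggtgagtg

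The Cox7c window held none of the 3 sequences and was 48% G and C. The Ndufaf4 window, 66% G and C, held 3 NRF1 matches, with 2 of them overlapping at positions -113 and -111 from the start and 1 at position 2. Atp5j held a YY1 match at -88 and an ETS match at -61, and Uqcr11 an ETS match at -66 and an NRF1 match at -4. Cox8a held 2 ETS matches, at -5 and 33, and Ndufs7 a YY1 match at 25. A match is a run of letters, and no binding was measured.

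Matches of all 3 kinds were more frequent in the respiratory chain windows than in all protein-coding windows. NRF1 matches were in 15.6% of the 77 windows, against 3.51% of 21262 protein-coding windows and 4.68% of the 11533 windows of genes that have an open promoter in these cells. ETS matches were in 23.4%, against 11.6% and 16.3% in the same backgrounds, and YY1 matches in 11.7%, against 1.83% and 2.58%. The CCAAT box sequence ATTGG was in 42.9%, against 38.2% and 37.3%, the E-box CACGTG in 11.7%, against 7.84% and 9.49%, and the TATA box sequence TATAAA in 9.09%, against 12.6% and 6.90%. These shares are descriptions and were not tested. At least 1 of the NRF1, ETS and YY1 sequences was found for 31 of the 71 genes. The 9 windows with a YY1 match belong to 8 genes and hold 8 distinct sites, since 2 windows of Atp5sl overlap. All 8 were on the strand of the gene, and 7 (87.5%) began between positions 11 and 36 after a start of the gene, as in Ndufs7 above. Among all protein-coding windows 200 of 388 distinct YY1 sites (51.5%) were on the gene's strand and after a start.

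Respiratory chain promoters were often shared with a neighbour. Of the 55 promoter-TSS peaks that overlapped the window of their own gene, 14 (25.5%) also overlapped that of another protein-coding gene, against 797 of 8572 (9.30%) over all promoter-TSS peaks that overlapped a window. Sdhd, a membrane anchor of complex II, shared its peak with Timm8b, a chaperone of mitochondrial import, and Ndufb5 with Mrpl47, a protein of the mitochondrial ribosome. Atp5j, a stalk subunit of the ATP synthase, shared its peak with Gabpa, which encodes the DNA-binding subunit of GABP. The peaks of Sdha (with Ccdc127), Uqcrh (with Lrrc41), Ndufs3 (with Kbtbd4), Ndufa7 (with Rps28), Ndufa4 (with Phf14), Ndufa5 (with Asb15), Ndufa8 (with Morn5), Ndufaf2 (with Ercc8), Ndufaf5 (with Esf1), Ndufaf8 (with Tepsin) and Atp5c1 (with Kin) were shared as well. Counts of such a peak cannot be divided between the genes it covers, and the 2 shares were not tested. They were not matched for peak width either, which had a median of 1035 bp over the 76 member promoter peaks and 695 bp over all promoter-TSS peaks.

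Because members are rows of a peak table, openness was given by their selection, and only levels are described for the respiratory chain promoters. Their accessibility, as CPM per kb of peak averaged over the 4 libraries, had a median of 18.7, against 15.3 over all 19883 promoter-TSS peaks, and 51 of the 76 (67.1%) lay above that overall median. Upper-quarter levels, above 25.7 CPM per kb, were reached by 26 (34.2%). The peaks were also wider, with a median of 1035 bp against 695 bp. By complex, the median level was 17.5 CPM per kb in complex I (37 peaks), 21.3 in complex II (4 peaks), 31.2 in complex III (6 peaks), 15.2 in complex IV (14 peaks) and 24.8 in complex V (15 peaks).

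**Figure D1:**
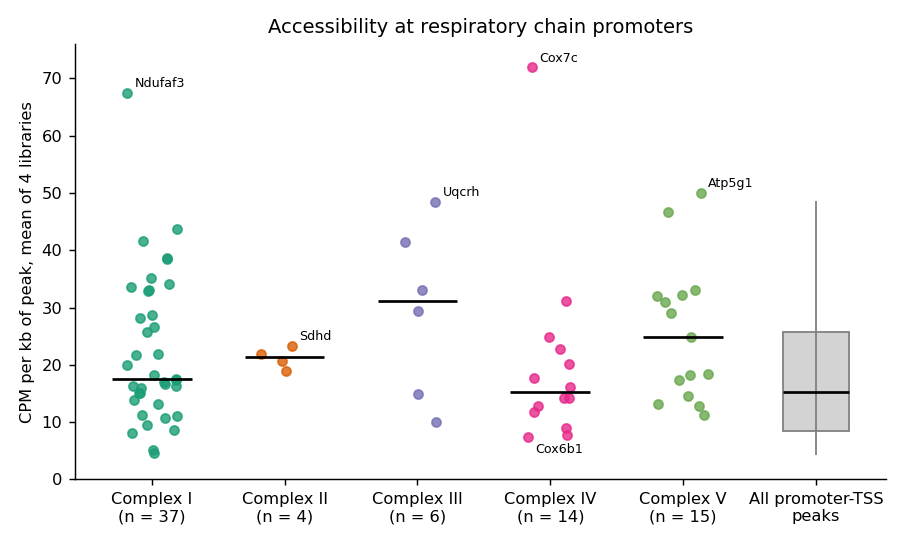
Accessibility of each respiratory chain promoter-TSS peak (points, CPM per kb of peak, mean of 4 libraries) by complex, with the median of each as a line; at the right, all 19883 promoter-TSS peaks as quartiles (box), median and the range holding the middle 90% (whisker). The complexes overlap, and Cox7c at 71.9 and Ndufaf3 at 67.5 CPM per kb stand above the rest.

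Cox7c, a small subunit of complex IV, had the highest level, 71.9 CPM per kb and the 99.0 percentile of all promoter-TSS peaks. By library it was 40 and 59 CPM per kb in Helios null cells and 74.8 and 114 in wild type cells, so the Helios null libraries were both lower. Ndufaf3, a complex I assembly factor, followed at 67.5 CPM per kb in a narrow peak of 259 bp. In complex V the highest was Atp5g1, a gene for the proton-carrying c subunit, at 50.1 CPM per kb. In complex III it was Uqcrh, the hinge subunit, at 48.4. Among the low promoters were Ndufa9 at 5.17, Cox6b1 at 7.42, Uqcr11 at 10.1 and a second peak of Ndufv2 at 4.69 CPM per kb. Core subunits of complex I, the part that holds its flavin and iron-sulphur clusters, included Ndufs3 at 15.1, Ndufs1 at 16.2, Ndufs7 at 17.3, Ndufv1 at 33.1, Ndufs8 at 38.7 and Ndufv2 at 41.6 CPM per kb.

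No promoter-TSS peak was listed for 20 of the 86 genes. They include the muscle subunit Cox6a2 and the testis subunits Cox7b2 and Cox8c, but also Atp5f1, Atp5h, Ndufb9, Ndufs4 and Uqcrfs1, which all respiring cells use. The class name accounts for some of them: peaks of Ndufs4, Uqcrfs1, Ndufb4, Ndufb10, Atp5k, Atp5j2 and Ndufc2 overlapped the RefSeq start window of the gene but were classed as intron, exon or other. Uqcrfs1, the Rieske iron-sulphur protein of complex III, had such an exon peak at 21.6 CPM per kb.

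The comparison of genotypes asked whether loss of Helios changed this accessibility. None of the 231 peaks passed the test (edgeR quasi-likelihood test, Benjamini-Hochberg adjusted p under 0.05), while 8 of 130754 peaks passed over the whole table, or 0.00612%. The smallest adjusted p among the members was 0.189. In a sorted mixture such as LSK cells, a change in the share of a cell type and a change in accessibility per cell cannot be told apart. At an unadjusted p under 0.05 there were 14 higher and 34 lower peaks, 20.8% of the members. Over all tested peaks that share was 19.8%, with 8.29% higher and 11.5% lower. Of the 34 lower member peaks, 11 were assigned to the single gene Ndufa4, so the excess of lower peaks leans on that locus. DESeq2 called 4 members, all lower, at the promoters of Ndufaf4, Ndufaf5, Cox7c and Atp5c1, with 2.88% called over its table, and limma-voom called 0 (0.00306% over its table). Without wild type 1, edgeR called 52 members, with the lone wild type library then assumed to vary like the Helios null ones; that is 22.5% of the members, against 21.5% of all tested peaks. Without wild type 2 it called 1 member (0.781% over all peaks), without Helios null 2 it called 3 (1.58%), and without Helios null 1 it called 0 (0.0298%).

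At the 76 promoter-TSS peaks the log2 fold change, Helios null over wild type, ran from -1.15 to 0.64 with a median of -0.06, against 0.02 over all promoter-TSS peaks. It was above 0 at 35 and below 0 at 41. With offsets for local gene density, the number of protein-coding genes nearby, 0 members passed the test (0.00841% over the table), 18 of the 76 were above 0 and the median was -0.17, against -0.10 over all promoter-TSS peaks. An unadjusted p under 0.05 was reached by 1 higher peak (background 7.28%) and 15 lower peaks, or 19.7% of the promoters (background 14.6%). Both Helios null libraries lay below both wild type libraries at 31 peaks, 40.8% against a background of 32.3%, and above both at 21, 27.6% against 30.8%. The median log2 fold change was -0.13 in complex I, 0.03 in complex II, -0.10 in complex III, -0.02 in complex IV and 0.09 in complex V. Within complex I it was 0.03 over 9 peaks of the core subunits, 0.07 over 9 of assembly factors and -0.20 over 19 of the other subunits.

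**Figure D2:**
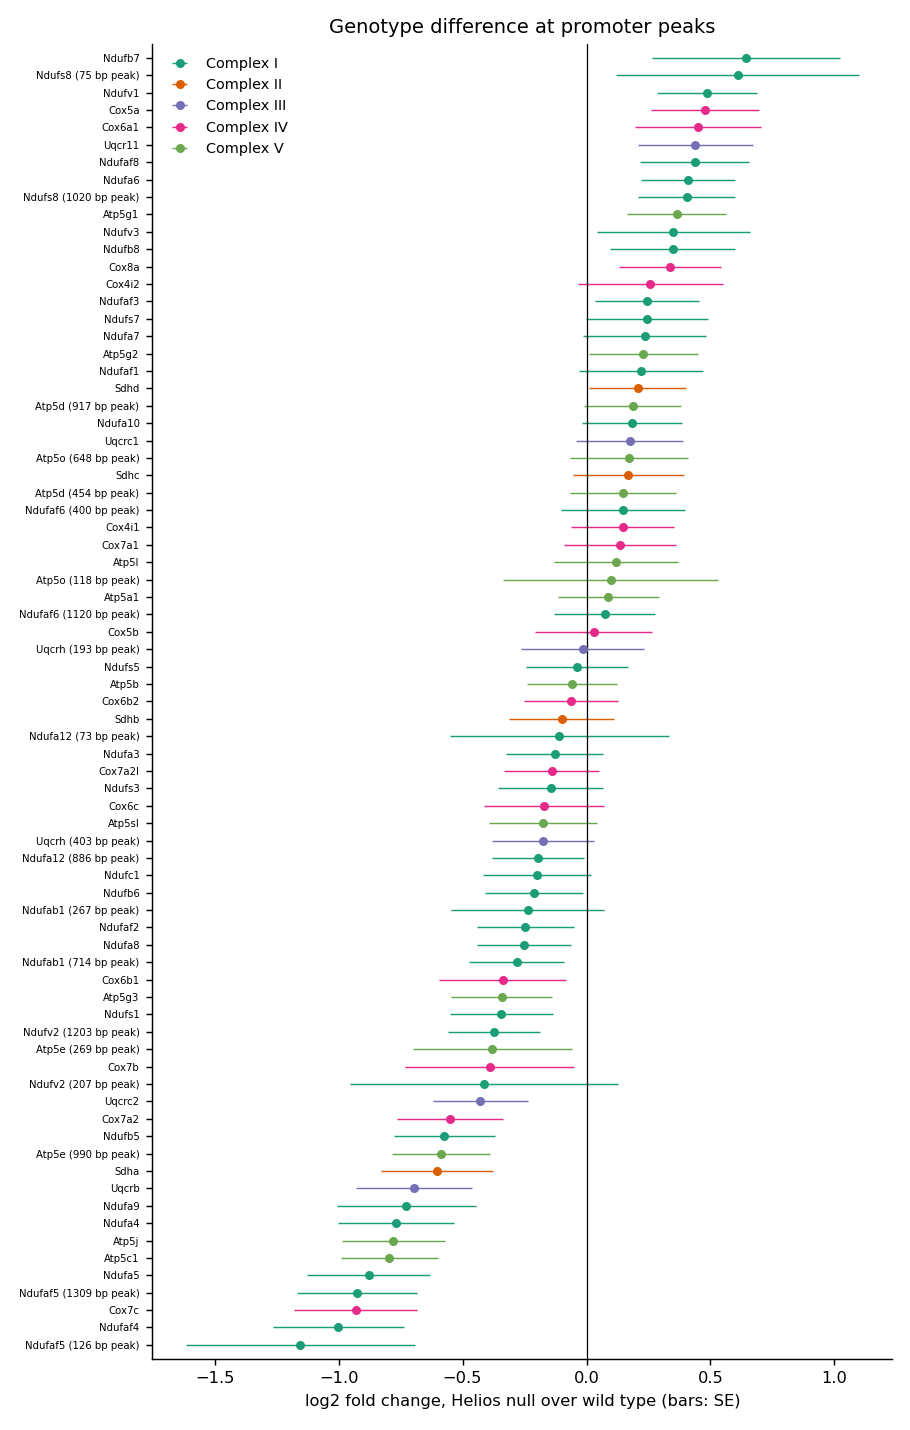
The log2 fold change (Helios null over wild type, edgeR) of 75 of the 76 promoter-TSS peaks, each with its standard error as a bar and the complex as colour; genes with several promoter peaks are told apart by peak width. Values run from 0.64 at Ndufb7 to -1.15 at a 126 bp peak of Ndufaf5, each complex spans 0, and no peak passed the test.

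In complex I the values with the smallest p were at 2 assembly factors and an accessory subunit. Ndufaf4, an assembly factor, had 15.3 and 20.6 CPM in Helios null cells and 27.1 and 45.1 CPM in wild type cells (log2 fold change -1.00, SE 0.26, edgeR adjusted p = 0.189). Ndufaf5, another factor needed for assembly, had 16.4 and 22.7 CPM in Helios null cells and 30.5 and 43.9 CPM in wild type cells (-0.93, SE 0.24). Ndufa5, the accessory subunit, had 24.1 and 32.8 CPM in Helios null cells and 40.6 and 64.2 CPM in wild type cells (-0.88, SE 0.25). In all 3 the genotypes did not overlap and the libraries stood in the same order, Helios null 1, Helios null 2, wild type 1 and wild type 2 from the lowest.

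The core subunits lay on both sides. Ndufv1, which carries the flavin that accepts electrons from NADH, had 43.3 and 39.5 CPM in Helios null cells and 33.6 and 25.4 CPM in wild type cells (log2 fold change 0.49, SE 0.20, adjusted p = 0.227). Ndufs8, an iron-sulphur subunit, had 46.4 and 43.5 CPM in Helios null cells and 38.2 and 29.6 CPM in wild type cells (0.40, SE 0.20, adjusted p = 0.271). In both the libraries were in the reverse order of Ndufaf4, with wild type 2 the lowest. Ndufv2, the partner of Ndufv1 in the NADH-oxidising module, had 40.8 and 46.5 CPM in Helios null cells and 52.3 and 60.8 CPM in wild type cells (-0.37, adjusted p = 0.279), in the order of Ndufaf4.

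Complex II, which also works in the citric acid cycle, lay on both sides of 0, but Sdhc and Sdhd turned below 0, to -0.16 and -0.074, with gene density offsets. Those offsets also moved the median over all promoter-TSS peaks from 0.02 to -0.10. Sdha, the flavoprotein, had 16.7 and 22.6 CPM in Helios null cells and 26.1 and 33.6 CPM in wild type cells (log2 fold change -0.60, SE 0.23, edgeR adjusted p = 0.205). The membrane anchor Sdhd had 28.6 and 25.7 CPM in Helios null cells and 24.5 and 22.5 CPM in wild type cells (0.21). Sdhc, the other anchor, had 13.4 and 13.2 CPM in Helios null cells and 11.1 and 12.6 CPM in wild type cells (0.17).

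In complex III, Uqcrb, a ubiquinone-binding subunit, had 27.1 and 37.0 CPM in Helios null cells and 42.1 and 62.0 CPM in wild type cells (log2 fold change -0.70, SE 0.23, edgeR adjusted p = 0.192). Uqcrc2, a core protein, had 45.9 and 48.2 CPM in Helios null cells and 55.2 and 71.5 CPM in wild type cells (-0.43). Uqcr11, a small subunit, was on the other side with 15.1 and 12.3 CPM in Helios null cells and 10.5 and 9.75 CPM in wild type cells (0.44, adjusted p = 0.304). None of the 3 had overlapping genotypes.

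In complex IV the promoter of Cox7c had 32.5 and 48.0 CPM in Helios null cells and 60.9 and 92.8 CPM in wild type cells (log2 fold change -0.93, SE 0.25, edgeR adjusted p = 0.189). Cox7a2, the widely expressed form of subunit VIIa, had 23.3 and 24.8 CPM in Helios null cells and 29.5 and 41.0 CPM in wild type cells (-0.55, adjusted p = 0.211). Cox5a, on the matrix side of the complex, had 22.5 and 17.8 CPM in Helios null cells and 15.2 and 13.7 CPM in wild type cells (0.48, adjusted p = 0.255). Wild type 2 was the highest library for the first 2 and the lowest for Cox5a.

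In complex V, Atp5c1, the rotating gamma subunit of the catalytic head, had 33.9 and 36.2 CPM in Helios null cells and 52.7 and 69.0 CPM in wild type cells (log2 fold change -0.79, SE 0.20, edgeR adjusted p = 0.189). Atp5j, whose peak also covers the start of Gabpa, had 66.9 and 77.7 CPM in Helios null cells and 101 and 147 CPM in wild type cells (-0.78, SE 0.21, adjusted p = 0.189). Atp5e, the epsilon subunit, had 23.1 and 28.0 CPM in Helios null cells and 35.8 and 40.9 CPM in wild type cells (-0.58, adjusted p = 0.192). Atp5g1 had 47.9 and 43.3 CPM in Helios null cells and 40.4 and 30.4 CPM in wild type cells (0.36).

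**Figure D3:**
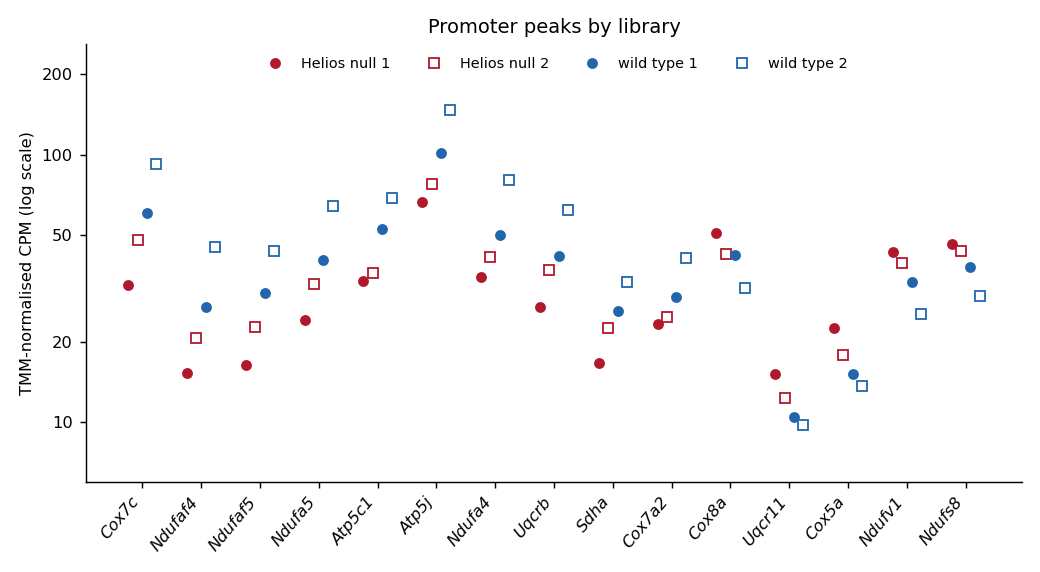
TMM-normalised CPM (log axis) at 15 respiratory chain promoter peaks in Helios null 1 and 2 (red) and wild type 1 and 2 (blue), each library a point and filled for number 1. In the 10 peaks from Cox7c to Cox7a2 values climb from Helios null 1 to wild type 2, and in the 5 from Cox8a to Ndufs8 they descend.

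All 15 lower promoter peaks with an unadjusted p under 0.05, of 14 genes, had the libraries in that same order, from Helios null 1 to wild type 2. Their log2 fold changes, -1.15 to -0.43, had a median of -0.77, which was -0.49 without wild type 2 and -0.98 without wild type 1. The difference between Helios null 1 and wild type 2 had an SD of 0.68 on the log2 scale over the 76 promoters, and that between Helios null 2 and wild type 1 an SD of 0.23. Within a genotype the SD was 0.27 between the Helios null libraries and 0.44 between the wild type libraries. So the Helios null and wild type libraries nearest each other differed less than did libraries of 1 genotype.

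The sign of the difference followed the gene density around the promoter. Over the 76 promoters, Spearman's rho between the number of protein-coding genes within 0.5 Mb and the log2 fold change was 0.70, and over all 19883 it was 0.47. These points share the same 4 libraries, and no p is given. With the fewest neighbours, at most 10 genes, 1 of 21 respiratory chain promoters was above 0 (4.76%) and their median was -0.38, against 26.9% and -0.34 over all promoters of like density. With a middle number, 11 to 21 genes, 9 of 20 were above 0 with a median of -0.14, against 54.0% and 0.04. With the most neighbours, 22 to 62 genes, 25 of 35 (71.4%) were above 0 with a median of 0.21, against 73.8% and 0.24. Cox7c, with 1 such gene, Ndufa4, with 3, and Atp5j, with 5, are in the first group, and Ndufv1, with 44, and Uqcr11, with 60, in the last.

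The same relation appeared between replicates of a genotype. Over the 76 promoters rho was 0.60 for Helios null 1 minus Helios null 2 and 0.55 for wild type 1 minus wild type 2. It was 0.65 for Helios null 1 minus wild type 1 and 0.60 for Helios null 2 minus wild type 2. After offsets from the trend over gene density, an alternative chosen after seeing the data, rho between gene density and the genotype difference was 0.26. The offsets take out a trend with gene density in each library, whatever its origin, a genotype trend included. A smaller rho was therefore built in. The 15 lower promoter peaks were chosen by their values in these same libraries, so their sign with the offsets is no separate check. With these offsets all 15 were below 0, with a median log2 fold change of -0.70, from -1.00 to -0.34. It was -0.35 for Cox7c, -0.35 for Ndufa4 and -0.51 for Atp5j, -0.79 for Ndufaf4 and -0.90 for Ndufa5, and 0.17 for Ndufv1 and 0.08 for Uqcr11. The part of gene density in the genotype differences was not tested. Library depth and the sex of the mice, as read from Y-linked counts, both follow the library number and cannot be told apart.

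**Figure D4:**
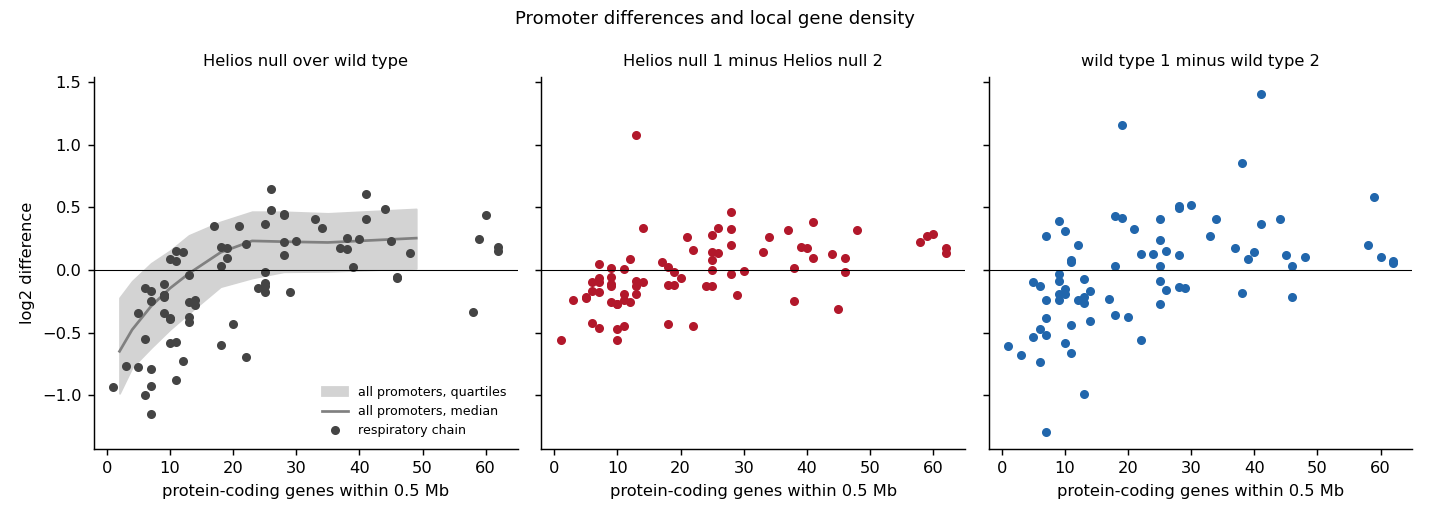
Differences on the log2 scale at the 76 respiratory chain promoter peaks (points) against the number of protein-coding genes within 0.5 Mb, for Helios null over wild type (left, with the median and quartiles over all promoter-TSS peaks), Helios null 1 minus Helios null 2 (middle) and wild type 1 minus wild type 2 (right). All 3 panels climb from left to right, with rho of 0.70, 0.60 and 0.55.

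Genotype values of the promoters with each motif stood beside differences in gene density. The median log2 fold change was 0.15 at the 10 promoter peaks with an NRF1 match and -0.14 at the 45 without, with median densities of 28 and 19 genes. For ETS matches it was 0.12 at 15 peaks with a match and -0.13 at 40 without (28 and 18 genes), and for YY1 -0.19 at 6 and -0.06 at 49 (20 and 21 genes). These differences were not tested.

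Several subunits exist as tissue isoforms, and the table holds peaks for most. For subunit IV, Cox4i1, the general form, had 14.3 CPM per kb and Cox4i2, known for its role in hypoxia and lung, 11.8. For subunit VIa, Cox6a1, the liver-type form, had 9.05 CPM per kb at its promoter and the muscle form Cox6a2 had a Distant-promoter peak at 4.82. The general form Cox6b1 had 7.42 CPM per kb and the testis form Cox6b2 20.2, in a peak that also holds the end of Fam71e2. Among VIIa forms, Cox7a1 of heart and muscle had 17.7, Cox7a2 24.9 and Cox7a2l, which joins complexes III and IV into supercomplexes, 22.8 CPM per kb. For VIII, the general Cox8a had 31.2 CPM per kb at its promoter and Cox8c a Distant-promoter peak at 3.65. The c subunit genes, whose mature proteins are the same, were ordered Atp5g1 at 50.1, Atp5g2 at 29.1 and Atp5g3 at 17.4 CPM per kb.

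Genotype values of these isoforms did not share a direction. Cox8a had 51.1 and 42.6 CPM in Helios null cells and 42.3 and 31.8 CPM in wild type cells (log2 fold change 0.34, SE 0.20, edgeR adjusted p = 0.359). Cox6a1 had 11.1 and 11.4 CPM in Helios null cells and 9.60 and 6.78 CPM in wild type cells (0.45, adjusted p = 0.332). Atp5g3 had 16.5 and 19.3 CPM in Helios null cells and 22.0 and 23.4 CPM in wild type cells (-0.34), the opposite side from Atp5g1. The remaining promoter values were between -0.39 at Cox7b and 0.26 at Cox4i2, apart from Cox7a2, Ndufa4 and Atp5g1, which are given with their complex or locus. With gene density offsets Cox4i2, Cox7a1 and Atp5g2 turned below 0 and Cox7a2l above 0, while the median over all promoter-TSS peaks moved from 0.02 to -0.10. Cox7b is on the X chromosome, and its promoter had 2.31 and 3.45 CPM in Helios null cells and 3.02 and 4.58 CPM in wild type cells, lower in the library numbered 1 of each genotype. An intron peak of the testis form Cox7b2 had 16 and 14 raw counts in Helios null cells and 42 and 38 raw counts in wild type cells. Scaled, these were 0.53 and 0.61 CPM in Helios null cells and 1.40 and 2.45 CPM in wild type cells (log2 fold change -1.72, SE 0.45, edgeR adjusted p = 0.189). The other peak of Cox7b2, also classed as intron, lay on the higher side (0.46).

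Ndufa4 had the most peaks of any member, 19, and all were below 0. The gene was first assigned to complex I and its protein is now known as a subunit of complex IV, but by its name it was counted in complex I here. Its promoter had 35.1 and 41.4 CPM in Helios null cells and 50.2 and 80.3 CPM in wild type cells (log2 fold change -0.77, SE 0.23, edgeR adjusted p = 0.189). The other 18 peaks are intergenic and lie 97371 to 456212 bp from the gene on chromosome 6. Their median log2 fold change was -0.85, and both Helios null libraries were below both wild type libraries at 12 of them (66.7%), against a background of 33.7% for intergenic peaks. That background covers every gene density, with a median of 7 genes, while the Ndufa4 promoter has 3 within 0.5 Mb. Intergenic peaks of like density were not compared, and the peaks are neighbours on a single stretch. The promoter value weakened with the gene density offsets given above. The highest, at chr6:11593527-11594759, reached 64.3 CPM per kb with a log2 fold change of -0.43, and its genotypes overlapped. A weak peak at chr6:11802720-11802921 had 3 and 11 raw counts in Helios null cells and 39 and 23 raw counts in wild type cells. Scaled, these were 0.099 and 0.48 CPM in Helios null cells and 1.30 and 1.49 CPM in wild type cells (-2.32, SE 0.61, edgeR adjusted p = 0.189). Another, at chr6:11793314-11793743, had 2.90 and 3.27 CPM in Helios null cells and 4.98 and 9.69 CPM in wild type cells (-1.23, adjusted p = 0.189).

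**Figure D5:**
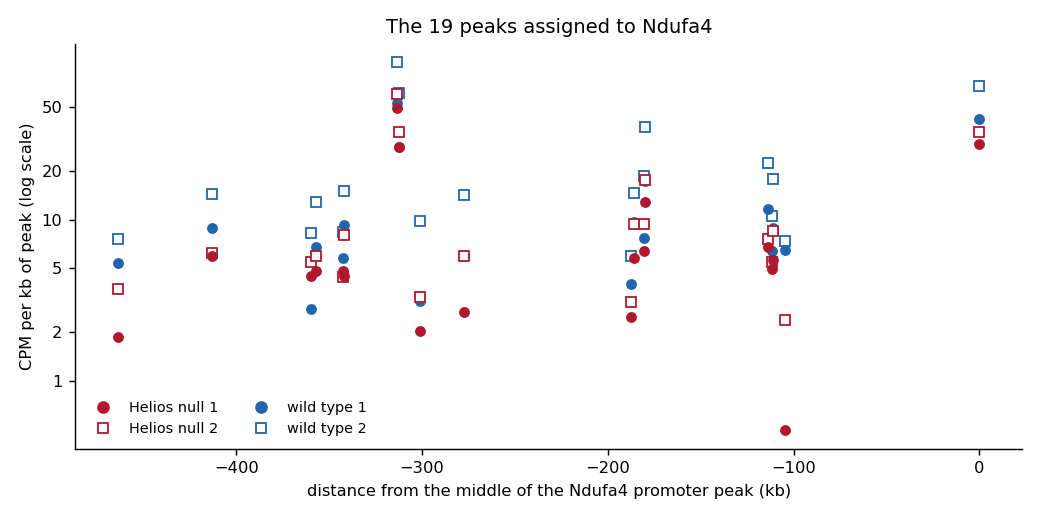
CPM per kb of peak (log axis) in each library at the 19 peaks assigned to Ndufa4, placed by distance in kb from the middle of its promoter peak at 0. Wild type 2 is the highest library at all 19 peaks and Helios null 1 the lowest at 17, over a stretch of 464355 bp.

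Without Ndufa4 the intergenic members were 28 peaks around 14 genes, and their median was -0.08 on the log2 scale, against -0.37 with it and -0.14 over all intergenic peaks. The other classes had medians of 0.13 for Distant-promoter (all tested peaks 0.08), 0.16 for introns (0.01), -0.09 for exons (0.00) and 0.14 for transcript ends (0.14). Ndufaf6, a complex I assembly factor, had 10 peaks, none below 0, with a median of 0.16. Ndufb9 had 9 peaks with 1 below 0 and a median of 0.48, all classed as intron but 6799 to 64103 bp from the gene. Cox7a2l had 9 peaks with 3 below 0 and a median of 0.04. The 8 peaks of Ndufb4, the 7 of Cox6c and the 7 of Ndufa12 were all below 0, and 5 of the 7 of Uqcrfs1. Peaks of Cox6c, too, lay up to 103295 bp from the gene, so the intron median does not describe introns of member genes alone.

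The non-promoter peaks with the smallest p on the higher side lay near Ndufv1, Uqcr10 and Cox6a1. The Ndufv1 Distant-promoter peak at chr19:4018656-4019656 had 17.4 and 13.4 CPM in Helios null cells and 10.0 and 5.81 CPM in wild type cells (log2 fold change 0.95, SE 0.29, edgeR adjusted p = 0.189). An intergenic peak of Uqcr10 had 6.70 and 5.63 CPM in Helios null cells and 4.15 and 2.58 CPM in wild type cells (0.85). An intron peak of Cox6a1 had 11.8 and 8.81 CPM in Helios null cells and 7.08 and 4.52 CPM in wild type cells (0.82). Each was non-overlapping between genotypes and again ordered from Helios null 1 down to wild type 2.

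Members on chromosome 1 from 40 to 130 Mb, around Ikzf2, were examined because its targeted allele lies there, and sequence around a targeted allele can differ in origin between genotypes. The Ndufs1 promoter had 16.6 and 19.8 CPM in Helios null cells and 21.5 and 24.7 CPM in wild type cells (log2 fold change -0.34, edgeR adjusted p = 0.358). That of Ndufa10 had 19.3 and 18.9 CPM in Helios null cells and 17.0 and 16.7 CPM in wild type cells (0.18). With gene density offsets the Ndufa10 value was -0.044, beside a median of -0.10 over all promoter-TSS peaks. An intergenic peak of Ndufb3 had 2.21 and 2.40 CPM in Helios null cells and 1.26 and 1.29 CPM in wild type cells (0.85, adjusted p = 0.225), with replicates closer than the genotypes. The intron peaks of Ndufa10 had log2 fold changes of 0.51 and -0.01, and the second changed sign under several settings.

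Genes that work with the chain were read from 4 lists, and 0 of their peaks passed the test. At an unadjusted p under 0.05 the 55 peaks of electron carriers and ubiquinone synthesis had 4 higher and 8 lower, the 88 peaks of assembly factors outside the name rule 9 and 6, the 101 peaks of regulators of transcription and mitochondrial DNA 4 and 21, and the 58 peaks of the citric acid cycle 2 and 7. The lower share was 14.5%, 6.82%, 20.8% and 12.1%, against 11.5% of all tested peaks, and the higher share 7.27%, 10.2%, 3.96% and 3.45%, against 8.29%. Their median log2 fold changes were 0.01, 0.14, -0.25 and -0.22 over all classes of peak, and 0.01, 0.05, 0.07 and -0.24 at their promoter-TSS peaks. Of the 27 promoter-TSS peaks of the regulators 2 were higher and 2 lower at that p, so most of their lower peaks lay outside promoters. The promoter of Gpd2, the mitochondrial glycerol phosphate dehydrogenase, had 43.9 and 53.0 CPM in Helios null cells and 65.5 and 91.6 CPM in wild type cells (log2 fold change -0.70, edgeR adjusted p = 0.189). That of Sdhaf3, a complex II assembly factor, had 24.7 and 34.5 CPM in Helios null cells and 43.1 and 67.0 CPM in wild type cells (-0.90). Fumarase, Fh1, had 70.8 and 81.5 CPM at its promoter in Helios null cells and 94.5 and 131 CPM in wild type cells (-0.57, adjusted p = 0.195). A Distant-promoter peak of Nrf1 lay on the higher side, with 14.5 and 9.55 CPM in Helios null cells and 6.08 and 5.10 CPM in wild type cells (1.10, adjusted p = 0.189). The other named peaks were at Tmem70 (-0.80), Coq2 (0.89) and Mterf1b (-1.63).

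The authors' deposited table gave an adjusted p for 126 of the 231 members. None was under 0.05, while 774 of 54782 peaks (1.41%) were in the authors' deposited table as a whole, and 11 members (8.73%) were under 0.1, against 6.97% of the peaks there. The smallest adjusted p in the authors' deposited table was 0.051 for Ndufaf4, followed by 0.055 for Cox7c, Atp5c1 and Ndufaf5.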

How the data were processed

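ATAC-seq libraries of LSK cells from 2 Helios null and 2 wild type mice were analysed from the deposited peak table. The submitters' processing notes name mm10, DESeq, HOMER, Bowtie2 (2.3.4.3) and bcl2fastq (2.17.1.14). No peak caller is named in the sources used here. The values per library are raw counts per peak, as deposited. The authors also deposited a mean signal, log2 fold changes and p-values, of which the adjusted p-values were read for comparison.

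Peaks were kept with filterByExpr (130754 kept, 187 dropped), scaled by TMM (factors 0.966 to 1.02) and tested with edgeR 4.0.16 (glmQLFit, glmQLFTest, 2-sided) and limma 3.58.1 in R 4.3.3, adjusted by Benjamini-Hochberg over all tested peaks. Members were read from that fit. The test was first checked on simulated counts with known changes. Their spread was fixed rather than taken from these libraries, so the check does not give the power of the test here. Replicates differed beyond counting noise (chi-square per degree of freedom 5.13 for Helios null, 8.29 for wild type).

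Alternatives were DESeq2 1.42.0, limma-voom, other scalings and filters, each library left out and the replicate number as a block. Gene density offsets were added after seeing the data. RefSeq (GRCm38.p6) gave starts, neighbours and promoter windows. Members and lists were chosen with earlier results of these data known. Named peaks were, per complex, the promoter peaks with the smallest 3 p (2 for complex II) and the highest and lowest level; isoform families; chromosome 1 members near Ikzf2; genes with the most peaks; the 3 non-promoter peaks with the smallest p per direction; and 2 genes per other list. A few items under this rule are not reported here. Peaks and genes outside this rule, such as those of Ndufs8, Ndufs6, Uqcrfs1, Ndufv2, Ndufb4, Cox6c, Ndufa12 and the Ndufa4 peak with the highest level, were chosen after their values were seen.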

Additional observations from a re-analysis of the deposited data

How the results depend on the processing

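The count of members past the test was 0 in the edgeR fit and under each other scaling, filter and gene density offset tried, and 0 with limma-voom. It was 4 with DESeq2, 0 to 52 with 1 library left out (52 without wild type 1), and 60 (23 higher, 37 lower) with the replicate number as a block. Over all peaks the count was 8, and 994 with DESeq2, 4 with limma-voom, 39 to 28120 with 1 library left out, and 30595 (23.4%) with the block. Of the 46 named member peaks 0 passed, 4 with DESeq2, 0 to 19 with 1 library left out and 21 with the block. Samples with the same number deviated together (r = 0.371 over all peaks, 0.339 over members), and also matched in Y-linked counts and depth rank, but no label says what a number marks and there are only 2 pairs, so the block is given here alone. The median log2 fold change of the promoter peaks, -0.06, was -0.028 with total counts, -0.050 with promoter factors, -0.073 with at least 1 CPM in 2 libraries, -0.0087 over all member peaks, -0.17 with gene density offsets and -0.077 to -0.041 with 1 library left out. Signs turned with gene density offsets at Sdhc (-0.16), the Ndufa10 promoter (-0.044), Ndufa4l2 (-0.15), Atp5g2 (-0.056), Cox7a2l (0.059), Cox4i2 (-0.022), Cox6a2 (-0.12), Cox7a1 (-0.21), Ndufaf3 (-0.078) and Sdhd (-0.074). The same offsets moved the median over all promoter-TSS peaks from 0.02 to -0.10, so such a turn need not be particular to the gene. With 1 library left out, values on both sides of 0 were found at Atp5g2 (-0.0037 to 0.51), the second Ndufv2 peak (-1.18 to 0.16), Cox4i2 (-0.096 to 0.76), Cox6a2 (-0.086 to 0.53), Cox6b2 (-0.17 to 0.049), Cox7a1 (-0.037 to 0.29) and an intron peak of Ndufa10 (-0.11 to 0.11), which was also 0.020 with total counts and 0.0043 with promoter factors. The cause was not tested. With 2 mice a genotype and totals from 16033211 counts, a difference that missed the test is not shown to be absent.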

Other observations

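Some respiratory chain genes in RefSeq have no row under their own name because the peak at their start is assigned to a neighbour. Of 12 such genes, 9 had a promoter window and 7 of these windows were covered by a peak. The start of Ndufs6, a subunit of complex I, lies in a peak assigned to Mrpl36, with 11.3 and 12.7 CPM in Helios null cells and 17.0 and 23.0 CPM in wild type cells (log2 fold change -0.73, SE 0.23, edgeR adjusted p = 0.189). The starts of Ndufa1 (peak of Rnf113a1, log2 fold change -0.35), Ndufaf7 (Cebpz, -0.31), Ndufb11 (Rbm10, -0.27), Ndufb1 (AC121965.1, -0.22), Ndufa13 (Tssk6, -0.02) and Atp5md (Pdcd11, 0.14) were also covered. No peak covered the windows of Cox8b and Ndufb4b. These genes are in no count given for the members.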
